A study of Capra hircus with 10 samples.

Results

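The genes described here are 8 of milk fat globules and milk secretion in the lactating mammary gland: MFGE8 (gene 100861394), SPP1 (gene 100860805), XDH (gene 100861280), PLIN2 (gene 100861245), ABCG2 (gene 100860857), BTN1A1 (gene 100860762), CSN3 (gene 100861231) and MUC1 (gene 102190921). They were found by NCBI gene identifier among the 17197 rows of the deposited expression table, and all 8 had a row. The libraries come from mammary gland cells of Lanshan dairy goats in 3D culture and form 5 groups of 2: Blank (labelled as control), Lv5NC (genotype 5NC), OV55666 (lncRNA55666 overexpression), Lv3NC (genotype 3NC) and KD553 (lncRNA55666 knockdown). Virus was used to deliver or inhibit lncRNA55666, a long noncoding RNA. Lv5NC was taken as the control of OV55666 and Lv3NC as that of KD553, from the order in which the series text lists them. No row is named for lncRNA55666, so its level could not be checked. The labels do not say what drives the inserted genes, whether a group is a clone, or whether its libraries came from separate cultures or animals. Every p-value below thus rests on how far libraries of a group differ, and that spread may be technical.

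In a lactating gland, alveolar epithelial cells store triglyceride in droplets coated by perilipins, of which PLIN2 is the main one. The droplet then leaves the cell wrapped in apical membrane. BTN1A1 (butyrophilin) in that membrane binds XDH (xanthine oxidoreductase) beneath it, MUC1 is a mucin of the apical surface, and MFGE8 (lactadherin) sits on the outside, where it binds phosphatidylserine and integrins. SPP1 (osteopontin) is a secreted phosphoprotein of milk that binds integrins and CD44. CSN3 (kappa-casein) stabilises the casein micelle, and ABCG2 pumps riboflavin and many drugs into milk. MFGE8, SPP1, PLIN2 and XDH are also made by other cells, among them fibroblasts, macrophages and endothelium.

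Most markers of luminal epithelium, the cells that secrete milk, were near the floor, and fibroblast markers were high. Of 15 luminal epithelial markers 12 stayed below an FPKM (fragments per kilobase of transcript, scaled to library size) of 1 in every library, and their summed FPKM lay between 13.28 and 17.73. The luminal keratins KRT8 and KRT18, EPCAM, CDH1, the lactation factor ELF5 and the prolactin receptor PRLR were among those 12. The exceptions were the oestrogen receptor ESR1 (mean 9.031 FPKM) and SPINT2 (4.879), which made up most of the sum, and CLDN4 (0.726, at most 1.04). The 12 fibroblast markers summed to between 20350 and 23040. Of 10 listed basal or myoepithelial markers 8 had a row, and 3 of these (KRT14, TP63 and OXTR) were below 1 in every library. The sum was between 1524 and 3094, highest in the second Blank library. Most of it came from the smooth muscle genes ACTA2 (mean 859.3 FPKM) and TAGLN (804.8), and from MYLK (282.4). Of 11 leukocyte markers 9 were below 1 in every library, as were 5 of 6 adipocyte markers and all 6 endothelial ones. In bulk RNA, fewer cells of a type and less RNA per cell cannot be told apart. The second Blank library stood apart: for 41.6% of tested genes it was the highest or the lowest of the 10, against 11.6% to 30.2% for each of the others. FPKM keeps no read number, so the depth of the libraries in reads is unknown.

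The 8 genes covered the whole range from abundant to almost undetected. The mean FPKM over the 10 libraries was 105.6 for MFGE8, 52.28 for PLIN2, 16.6 for SPP1, 3.096 for ABCG2, 1.149 for XDH, 0.483 for MUC1, 0.005 for CSN3 and 0.001 for BTN1A1. From MFGE8 to XDH each gene was higher than the next in 10 of 10 libraries with no overlap of their ranges. XDH and MUC1 overlapped, with XDH higher in 9 of 10 libraries, and CSN3 and BTN1A1 could not be ordered. By mean level MFGE8 ranked 499 among all rows and PLIN2 1000, and 97.1% and 94.2% of rows had a lower mean. BTN1A1 and CSN3, the members most specific to milk secretion, were at the floor.

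**Figure D1:**
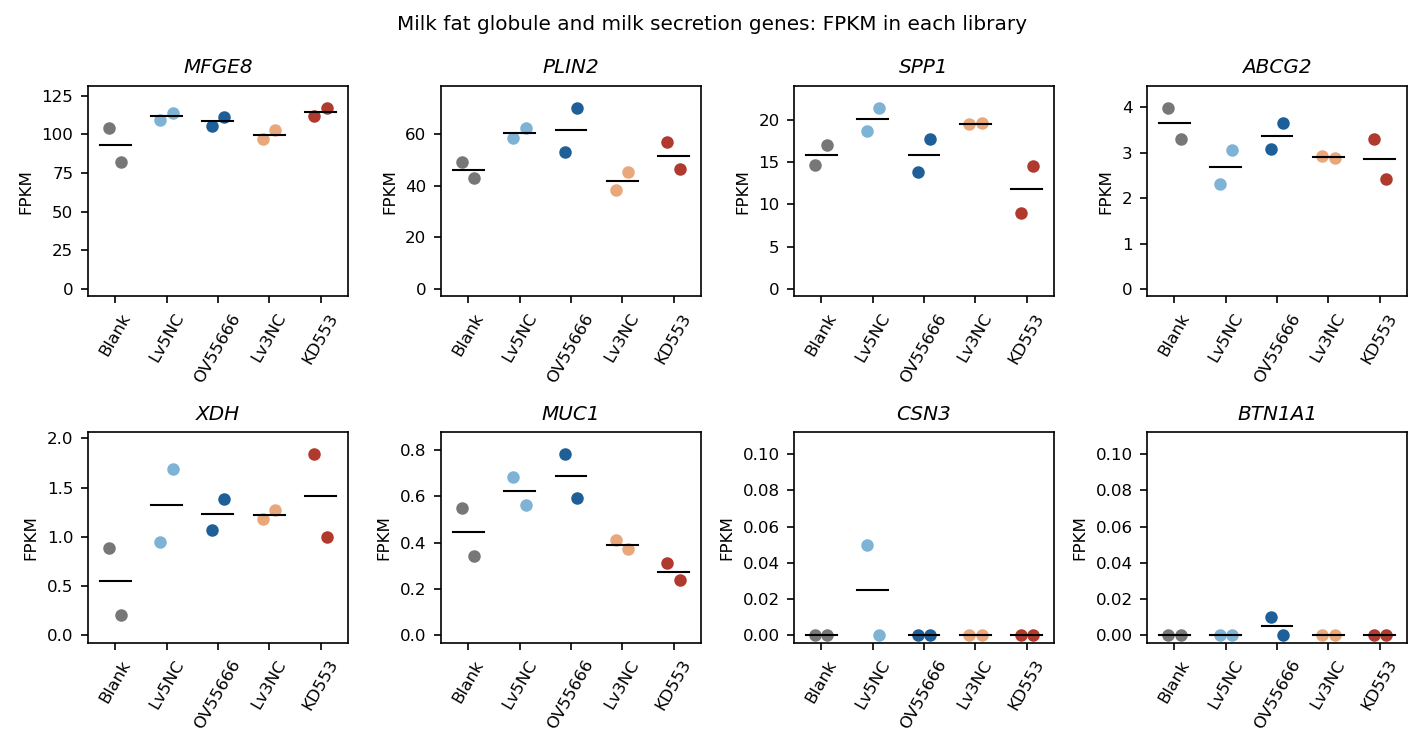
FPKM of the 8 genes (vertical axes, each panel with its own linear scale from 0) in each of the 10 libraries (points) by group, with the mean of the 2 libraries as a black line. MFGE8 lies between 82.22 and 117.27, XDH is lowest in the Blank libraries, SPP1 and MUC1 have their lowest values in KD553, and CSN3 and BTN1A1 are above 0 in 1 library each.

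A filter kept genes that reached 1 FPKM in 2 or more libraries, and 5 members passed it: MFGE8, SPP1, XDH, PLIN2 and ABCG2. Tests used limma on log2(FPKM + 1), fitted to all 10 libraries and 11340 genes, with Benjamini-Hochberg adjustment over all of them and a call at an adjusted p under 0.05. Such log2 changes understate the change of genes near the pseudocount, such as XDH. None of these 5 was called in the 8 pairwise comparisons of groups, the contrast of both effects or the test over all groups. In the test for any difference among the 5 groups, 37 genes were called, 0.326% of those tested, and the limma adjusted p of the members lay between 0.34 for PLIN2 and 0.654 for ABCG2. Unadjusted, SPP1 and PLIN2 were under 0.05 in that test, as were 11.4% of all tested genes.

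CSN3 and BTN1A1 were listed at 0 in 9 of 10 libraries each. CSN3 had an FPKM of 0.05 in the first Lv5NC library and BTN1A1 0.01 in the first OV55666 library. The BTN1A1 value is the smallest that the rounding of the table can show, and the CSN3 value is little above 0. Of a list of 13 milk protein genes that includes CSN3 and SPP1, 4 had a row, and SPP1 was the one above 1 FPKM. LPO, an antibacterial peroxidase of milk, had a mean of 0.193 and PTHLH, a hormone that the lactating gland releases, 0.313. The other caseins CSN1S1, CSN1S2 and CSN2 and the lactose synthase subunit LALBA were also listed but had no row, so no level can be given. All 17197 rows held a value above 0 in at least 1 library. Whether the genes without a row were at 0 throughout or missing for another reason was not tested. In the gene order of the ARS1.2 assembly, ODAM, next to CSN3, also had a mean of only 0.033.

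MUC1, the apical mucin, was low in all 10 libraries and did not pass the filter. Its FPKM was 0.55 and 0.34 in Blank, 0.68 and 0.56 in Lv5NC, 0.78 and 0.59 in OV55666, 0.41 and 0.37 in Lv3NC, and 0.31 and 0.24 in KD553. Both KD553 libraries lay below all other 8, a pattern that 3.79% of tested genes shared. All 4 Lv5NC and OV55666 libraries lay above all 4 Lv3NC and KD553 libraries, as in 1.49% of tested genes. Both shares are of genes that passed the filter, so MUC1 itself and other genes this low are not among them. These arrangements were picked after the values were seen. Levels this low are given in few digits, and with a pseudocount above all of them, log2 differences understate the change in FPKM. Without a filter on low values the limma log2 difference of Lv3NC from Lv5NC was -0.22 ± 0.09 (SE; adjusted p = 1.0), and that of KD553 from Lv3NC was -0.125 ± 0.092 (adjusted p = 0.885).

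MFGE8 was the most abundant and, among the tested members, the steadiest. Its FPKM was 104.45 and 82.22 in Blank, 109.57 and 114.05 in Lv5NC, 105.65 and 111.36 in OV55666, 97.12 and 102.55 in Lv3NC, and 111.81 and 117.27 in KD553. The second Blank library was the lowest, and the highest library exceeded it 1.43-fold. With overexpression the groups overlapped, with a log2 change of -0.04 (95% interval -0.297 to 0.211, limma adjusted p = 1.0). In the knockdown both libraries lay above both Lv3NC libraries, by 0.20 on the log2 scale (interval -0.057 to 0.45, limma adjusted p = 0.761). Both intervals include 0, and that of the knockdown lies mostly above it. Against Blank, Lv5NC was higher by 0.27 (interval 0.014 to 0.522, limma adjusted p = 0.368). That value rested on the second Blank library: it was 0.097 without that library (limma adjusted p = 0.785), and 0.439, past the threshold, without the first (limma adjusted p = 0.0483).

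The receptor chains for MFGE8 and SPP1 ranged from abundant to almost undetected. ITGB1, the common beta chain, had a mean FPKM of 386.2 and ITGA5 149, and ITGAV, the alpha chain of the receptors for both ligands, had 64.01. EDIL3, a close relative of MFGE8 that also binds integrins, had 137.5, and CD44 had 132.8. The beta chains ITGB5 (18.54) and ITGB3 (10.96) were lower, as were the alpha chains ITGA8 (11.78), ITGA4 (7.825) and ITGA9 (3.851). ITGB6, the beta chain typical of epithelium, stayed at or below 0.05. Of the 10 tested genes in this list of 15, 0 were called for overexpression or knockdown, with medians of 0.002 and -0.011 against 0.019 and 0.003 over all tested genes. With Blank in place of Lv3NC as the control of the knockdown, ITGA4, an alpha chain that binds SPP1 and fibronectin, fell: 13.54 and 10.04 FPKM in Blank against 5.63 and 4.15 in KD553 (log2 -1.12 ± 0.18, limma adjusted p = 0.0204). In that comparison 2.52% of genes were called, and the ITGA4 call was lost without the KD553 library of the second column. ITGA4 was also below Blank in Lv5NC, Lv3NC and OV55666 (log2 -0.633, -0.589 and -0.534), without a call. Against Lv3NC, its own control, the knockdown value of ITGA4 was -0.528 (limma adjusted p = 0.532).

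**Figure D2:**
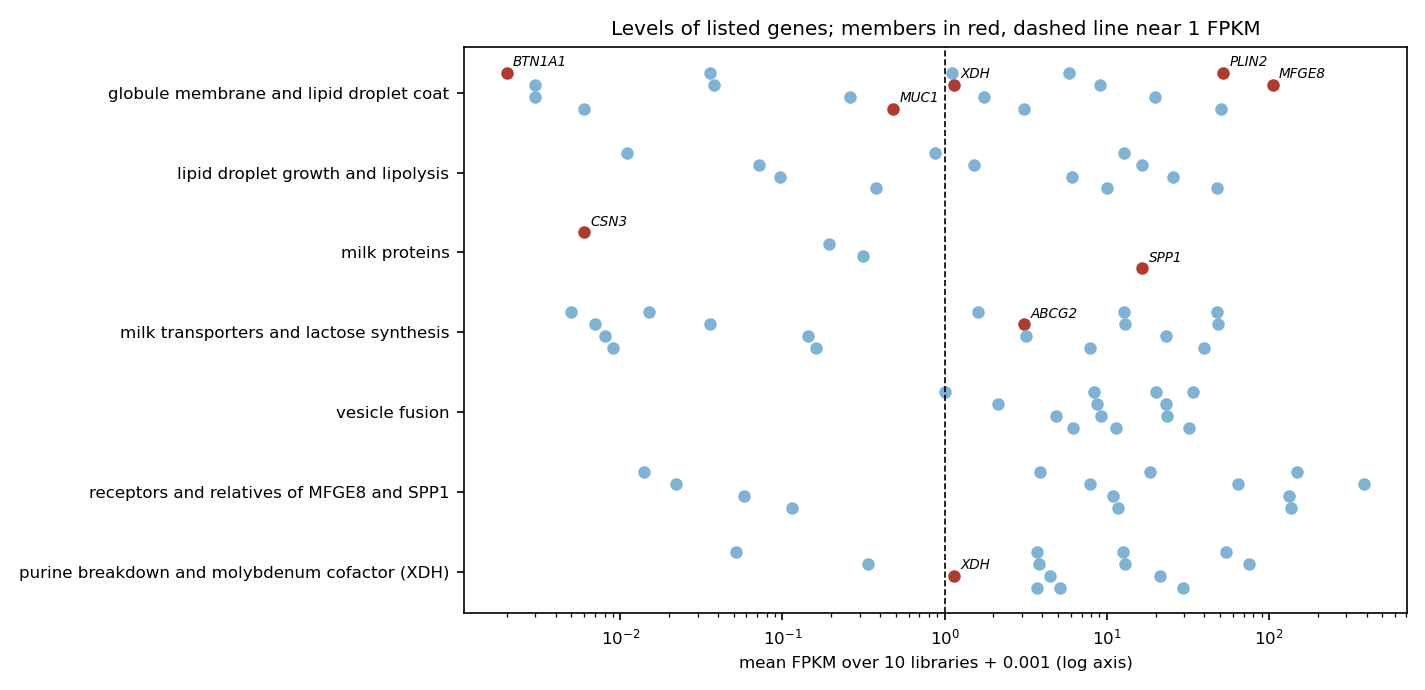
Mean FPKM over the 10 libraries, plus 0.001, on a log axis, for every gene with a row in 7 lists around the members (1 point per gene, members in red, offsets within a list only separate the points). Vesicle fusion and integrin genes lie mostly above the dashed line at 1 FPKM, whereas BTN1A1, CSN3 and MUC1 lie below it, and XDH appears in 2 lists.

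SPP1 had the largest measured differences of the members in both manipulations, both below the control and neither past the test. Its FPKM was 14.6 and 17.04 in Blank, 18.68 and 21.43 in Lv5NC, 13.86 and 17.73 in OV55666, 19.51 and 19.58 in Lv3NC, and 9.03 and 14.57 in KD553. Each manipulated group lay below both libraries of its control, and the first KD553 library was the lowest of all 10, while the second was above the first OV55666 library. The KD553 mean of 11.8 ± 3.92 FPKM (SD, n = 2) compared with 19.55 ± 0.05 in Lv3NC, a log2 difference of -0.72 ± 0.20 (SE; interval -1.168 to -0.267, limma adjusted p = 0.405). Of all tested genes 28 had a lower log2 difference in that comparison. The size depended on 1 library: it was -0.4 without the KD553 library of the first column and -1.034 without that of the second (limma adjusted p = 0.745 and 0.113).

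For overexpression, the SPP1 means were 15.79 ± 2.74 in OV55666 and 20.05 ± 1.94 FPKM in Lv5NC (SD, n = 2). The log2 difference was -0.33 ± 0.20 (SE; interval -0.783 to 0.118, limma adjusted p = 1.0), and 69 of the tested genes had a lower one. The choice of control mattered here: against Blank the difference of OV55666 was -0.008, since both Lv5NC libraries lay above both Blank libraries. For the knockdown, the difference was -0.75 against Lv5NC and -0.425 against Blank (limma adjusted p = 0.363 and 0.302). Those comparisons called 0.0176% and 2.52% of genes, and OV55666 against Blank called 0.379%. Both effects on SPP1 thus had the same sign. Their difference, 0.385 with an interval of -0.252 to 1.021, did not pass (limma adjusted p = 1.0).

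SPP1 and ABCG2 are close neighbours: in the ARS1.2 gene order PPM1K, ABCG2, PKD2, SPP1, MEPE and IBSP follow one another. MEPE and IBSP, matrix phosphoproteins of bone related to SPP1, had means of 0.057 and 0.113 FPKM, and DMP1, another relative, 0.013. PKD2, between ABCG2 and SPP1, had 16.7. Across the 10 libraries SPP1 and ABCG2 did not follow each other (Pearson r = -0.23, Spearman rho = -0.33, a description without a test).

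PLIN2, the droplet coat protein, had its largest measured difference between the control viruses, and it did not pass the test. Its FPKM was 49.17 and 42.92 in Blank, 58.53 and 62.29 in Lv5NC, 52.9 and 70.21 in OV55666, 38.18 and 45.32 in Lv3NC, and 56.9 and 46.43 in KD553. By group mean Lv5NC and OV55666 were highest and Lv3NC lowest, although single libraries of other groups fell between theirs, and the OV55666 libraries enclosed both Lv5NC libraries. Lv3NC was below Lv5NC by 0.53 ± 0.15 on the log2 scale (SE; as a difference -0.527, interval -0.874 to -0.18, limma adjusted p = 1.0), and 47 of all tested genes had a lower difference. In that comparison limma called 0 genes (0.0%), and 303 (2.67%) had an unadjusted p under 0.05.

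PLIN2 was at 51.66 ± 7.4 FPKM in KD553 against 41.75 ± 5.05 in Lv3NC (SD, n = 2), with both knockdown libraries above both control libraries. The log2 difference was 0.30 ± 0.15 (SE; interval -0.048 to 0.645, limma adjusted p = 0.724). With Lv5NC as the control its sign turned, to -0.228 (limma adjusted p = 0.736). Overexpression gave 0.01 ± 0.15 (interval -0.333 to 0.36, limma adjusted p = 1.0), a value whose sign turned with library medians made equal (-0.009). In both manipulations the direction of PLIN2 thus changed with a setting or a control.

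Of the 5 perilipin genes, only PLIN2 and PLIN3 had RNA above 1 FPKM. PLIN2 made up between 64.5% and 79.1% of their summed FPKM, lowest in the first Lv3NC library and highest in the second OV55666 library. PLIN3, which is found on droplets of most cells, had a mean of 19.88 FPKM and ranged from 18.07 to 23.07. PLIN1, the coat of fat cell droplets, stayed at or below 0.33 and PLIN5, of oxidative tissues, at or below 0.02. The droplet fusion genes CIDEA and CIDEC were present at means of 9.075 and 5.859, and RAB18, a small GTPase on droplets, at 50.6.

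XDH, which binds butyrophilin in the gland and oxidises hypoxanthine and xanthine everywhere, was close to 1 FPKM and had the widest range of the tested members relative to its level. Its FPKM was 0.89 and 0.21 in Blank, 0.95 and 1.69 in Lv5NC, 1.07 and 1.39 in OV55666, 1.18 and 1.27 in Lv3NC, and 1.84 and 1.0 in KD553. Both Blank libraries were below all other 8, an arrangement found in 6.51% of tested genes, and the highest library exceeded the lowest 8.76-fold. That range rested on the value of 0.21 in the second Blank library. On the log2(FPKM + 1) scale the SDs of XDH and SPP1 over the 10 libraries were close, at 0.34 and 0.338. The pseudocount compresses the spread of XDH more than that of SPP1, whose level is higher. Lv5NC and Lv3NC were above Blank by 0.60 and 0.56 on the log2 scale (limma adjusted p = 0.36 and 0.34), and neither passed. Without the second Blank library the Lv5NC value was 0.277 (limma adjusted p = 0.786). In the manipulations XDH differed by -0.04 (interval -0.604 to 0.519) for OV55666 and 0.10 (interval -0.462 to 0.661) for KD553, with overlapping groups in both (limma adjusted p = 1.0 and 0.97).

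Most genes around XDH in purine breakdown and in making its molybdenum cofactor were above 1 FPKM, except GDA (mean 0.334), a guanine deaminase, and AMPD3 (0.051). PNP, which releases hypoxanthine from inosine, had a mean of 54.35 FPKM, the ectonucleotidase NT5E 75.63, AMPD2 29.6 and NT5C2 21.2. Of the 16 genes in this list 14 had a row and 12 were tested. Of the tested genes 0 were called in the manipulations, with a median of 0.045 for overexpression and -0.036 for knockdown. The cofactor genes MOCS1, MOCS2, MOCS3, MOCOS and GPHN all had means above 3 FPKM. XDH was thus the lowest of the 12 tested genes of its own pathway, while GDA and AMPD3, which were lower still, did not pass the filter.

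ABCG2, the milk transporter, had low levels, and none of its differences passed the test. Its FPKM was 3.99 and 3.31 in Blank, 2.32 and 3.06 in Lv5NC, 3.08 and 3.66 in OV55666, 2.93 and 2.88 in Lv3NC, and 3.3 and 2.43 in KD553. Both OV55666 libraries lay above both Lv5NC libraries, by 0.25 ± 0.15 on the log2 scale (SE; interval -0.079 to 0.575, limma adjusted p = 1.0), while against Blank the difference was -0.089. For the knockdown the groups overlapped (-0.02 ± 0.15, limma adjusted p = 0.985). The other tested transport and lactose synthesis genes included UGP2 (mean 48.79 FPKM) and PGM1 (47.84), which make UDP-glucose, B4GALT1 (39.54), the catalytic part of lactose synthase, and the glucose carrier SLC2A1 (23.34). Of the 18 listed genes with a row, 8 were below 1 FPKM in every library. Among these were the calcium pump ATP2B2 (at most 0.02) and the zinc carrier SLC30A2 (at most 0.03). The related ATP2B1 (mean 7.902), ATP2C1 (12.94) and SLC30A4 (3.172) were above 1 FPKM in every library. Of 10 tested genes in this list of 19, 0 were called in the manipulations (medians 0.028 and -0.05).

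**Figure D3:**
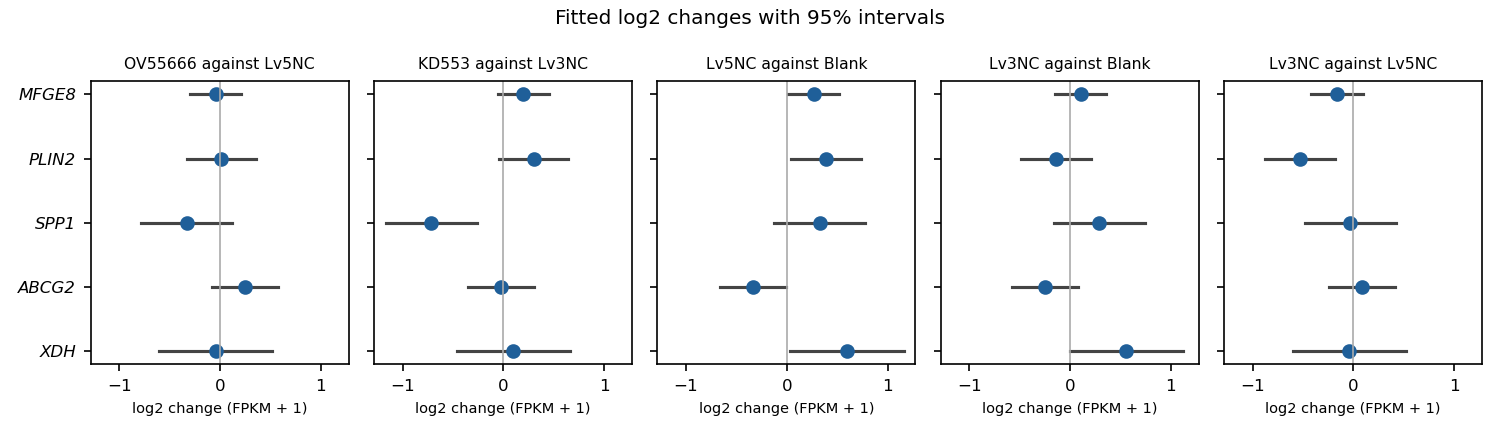
Fitted log2 changes on the log2(FPKM + 1) scale (points) with 95% intervals (bars) for the 5 tested members in 5 comparisons. Intervals that leave out 0 are those of SPP1 for KD553 against Lv3NC, PLIN2 for Lv3NC against Lv5NC, and MFGE8, PLIN2, ABCG2 and XDH for Lv5NC against Blank; none of these passed adjustment over all genes.

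Counted by comparison, SPP1 was the 1 tested member separated from its control in both manipulations. The share of all tested genes separated in both was not counted, so members are read here against the share in each comparison. For OV55666 against Lv5NC the libraries did not overlap in 2 of the 5 tested members (SPP1 lower, ABCG2 higher), where 26.8% of all tested genes did not overlap. For KD553 against Lv3NC they did not overlap in 3 (MFGE8 and PLIN2 higher, SPP1 lower), where the share was 37.7%. With 5 members tested, these counts are not far from the shares of all genes and show nothing particular to the members. In limma 0 genes were called for OV55666 (0.0%, with 166, or 1.46%, at an unadjusted p under 0.05) and 8 for KD553 (0.0705%), with 0 of the members among them. The KD553 count was 0 without either KD553 library, 2 without the first Lv3NC library and 3 without the second, and 12 without the second Blank library. For the contrast of both effects it was 0 (0.0%, with 386, or 3.4%, unadjusted).

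Against Blank, XDH and SPP1 were higher and ABCG2 lower in both libraries of either control virus. The share of all tested genes separated from Blank in both control viruses was not counted. Lv5NC did not overlap Blank in any of the 5 tested members (MFGE8, SPP1, XDH and PLIN2 higher, ABCG2 lower), where 39.4% of all tested genes did not overlap. Lv3NC did not overlap Blank in 3 (SPP1 and XDH higher, ABCG2 lower), where 46.2% did not. Between Lv3NC and Lv5NC, MFGE8 and PLIN2 did not overlap (30.9% of tested genes). limma called 33 genes for Lv5NC (0.291%) and 15 for Lv3NC (0.132%), none of them a member. These calls rested on few libraries. Without the second Blank library they fell to 3 and 1, without the first they rose to 288 and 292, and without either library of the control virus compared they were 0. Lv5NC and Lv3NC share the Blank libraries, so these comparisons are not independent.

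**Figure D4:**
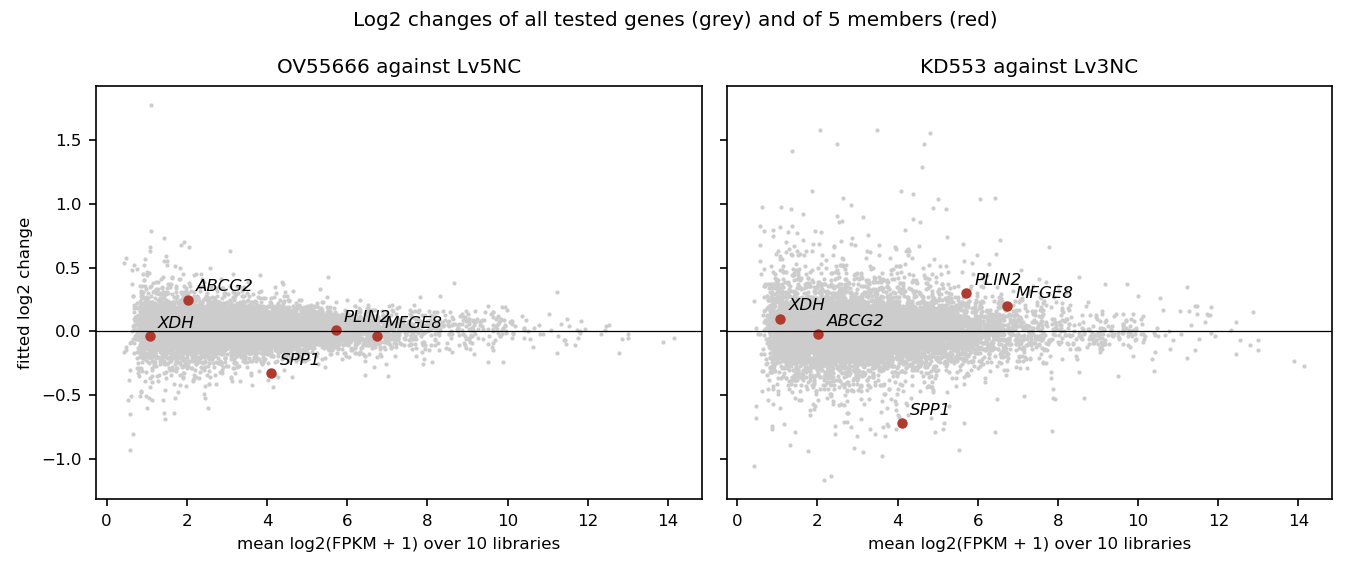
Fitted log2 change against mean log2(FPKM + 1) for the 11340 tested genes (grey points) and the 5 tested members (red, named), for overexpression (left) and knockdown (right). SPP1 lies at the lower edge for its level in both panels, at -0.33 and -0.72, and the other members lie within the cloud or near its upper edge.

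Around the globule membrane, the fatty acid carriers CD36 and FABP3 were called in 1 comparison, that of KD553 with Blank. Of 18 genes in this list with a row, 10 were tested, and 0 were called for overexpression (median 0.079) or knockdown (median 0.101). With Blank as the control of the knockdown, CD36, a fatty acid receptor that is itself a globule membrane protein, rose from 0.84 and 0.19 FPKM to 2.99 and 1.9 (log2 1.20 ± 0.24, limma adjusted p = 0.0405). FABP3, a cytosolic fatty acid carrier abundant in the lactating gland, fell from 5.55 and 10.35 to 0.93 and 1.39 (log2 -2.01 ± 0.34, limma adjusted p = 0.0276). Without the second Blank library CD36 was at 0.887 and FABP3 at -1.609, of the same direction but no longer called (limma adjusted p = 0.195 and 0.136). Both calls were also lost without either KD553 library (limma adjusted p between 0.0936 and 0.126). Against Lv3NC, CD36 and FABP3 in KD553 were at 0.438 and -0.938 and did not pass (limma adjusted p = 0.75 and 0.578). The other virus groups differed from Blank in the same directions, without a call. For CD36 the log2 differences from Blank were 1.17 in Lv5NC, 0.763 in Lv3NC and 0.966 in OV55666. For FABP3 they were -1.897, -1.067 and -1.677, so these shifts from Blank were not particular to the knockdown. The second Blank library had the lowest CD36 and the highest FABP3 of all 10, and also the highest smooth muscle genes ACTA2 (1246.8 FPKM) and TAGLN (1241.67 FPKM). The part of that library's makeup in these results was not tested.

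Droplet growth and lipolysis genes and the vesicle fusion machinery had no called gene in the comparisons tested. Of the 12 genes of droplet growth and lipolysis 8 were tested, and 4 were below 1 FPKM in every library. Those were the lipases LIPE (mean 0.374) and MGLL (0.071), the lipase inhibitor G0S2 (0.01) and DGAT2. AUP1, a droplet protein that recruits a ubiquitin-conjugating enzyme, had a mean of 47.85 FPKM, seipin (BSCL2) 25.54, the triglyceride lipase PNPLA2 16.43 and the acyl-CoA synthetase ACSL3 12.69. DGAT1, which makes triglyceride, had 6.06 where DGAT2 stayed at or below 0.14. All 13 vesicle fusion genes were tested, with RAB3D at a mean of 34.19, VAMP3 at 32.05, STXBP2 at 23.64 and VAMP8, a fusion protein of secretory granules, at 23.24. The medians for overexpression and knockdown were 0.012 and 0.01 for the droplet list and 0.054 and 0.019 for vesicle fusion.

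Within groups, PLIN2 followed the library order of XDH, and SPP1 and MUC1 followed it in fewer groups. In each of the 5 groups the library with more XDH also had more PLIN2, CD36 and CD14, an order that 3.82% of the other tested genes shared in all 5 groups. ABCG2 and MFGE8 had that order in 4 of 5 groups SPP1 in 3 and MUC1 in 2. Deviations from the group means correlated at r = 0.94 between XDH and ABCG2 and at 0.72 between XDH and PLIN2, whereas over all 10 libraries the values were near 0 for XDH and ABCG2 and 0.5 for XDH and PLIN2. Deviations of SPP1 ran against those of MUC1 (r = -0.73) and XDH (-0.4). MFGE8 and XDH had r = 0.78 over all 10 libraries, which dropped to 0.28 without the second Blank library. With 2 libraries a group, the deviations within a group are equal and opposite. The correlations of deviations thus rest on 5 differences, not on 10 separate values. All these values are descriptions, and the pairs were picked after they were seen.

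**Figure D5:**
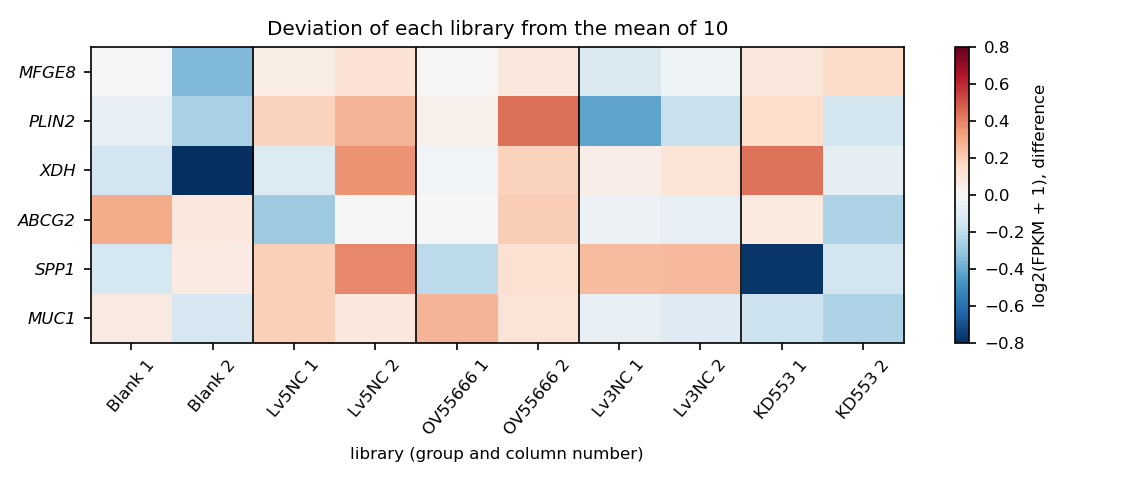
Deviation of each library from the mean of the 10 libraries in log2(FPKM + 1), for 6 members (rows) in the 10 libraries (columns, named by group and column number, with lines between groups); red is higher, blue lower, and colours saturate at 0.8. The lowest values are those of XDH in the second Blank library and of SPP1 in the first KD553 column, and MFGE8 deviates little outside the second Blank library.

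The genes whose pattern over the 10 libraries was most like each member differed from member to member. They were sought among 1721 tested genes with a symbol and an SD of at least 0.2 on the log2 scale. For PLIN2 the closest were CD14, a receptor for bacterial lipopolysaccharide (Pearson r = 0.889), LOC102168428 (0.869) and UNC5B, a netrin receptor (0.864). For XDH they were QPCT (0.961), the transcription factor KLF2 (0.946) and NUDT4 (0.944). For MFGE8 they were ATOH8, GP1BB and F2RL2, a protease-activated receptor (0.933, 0.924 and 0.921). For SPP1 they were the transcription factor CREB5 (0.881), the sodium pump subunit ATP1B1 (0.821) and FOLH1B (0.81), and for ABCG2 they included TP53INP1 (0.921) and LOC102181993 (0.92). No gene was among the closest of more than 1 member.

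CD14 moved with PLIN2 as the one abundant gene of the leukocyte marker list. It had 26.16 and 16.85 FPKM in Blank, 33.03 and 37.23 in Lv5NC, 31.59 and 37.12 in OV55666, 21.64 and 22.53 in Lv3NC, and 34.86 and 26.86 in KD553. The defining leukocyte genes PTPRC and AIF1 stayed at or below 0.01 and 0.11 in every library, and CSF1R at or below 0.33. The summed leukocyte markers, nearly all CD14, were 28.95 and 18.99 in Blank, 35.35 and 39.57 in Lv5NC, and 23.62 and 25.51 in Lv3NC. CD14 was thus high where these defining genes were near 0, and its part in the PLIN2 pattern was not tested.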

How the data were processed

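The authors deposited FPKM values per gene, rounded to 2 decimals, per the file headers. The sources used here name no aligner, quantification tool or genome build. Of 17197 rows, 16658 matched the RefSeq table for ARS1.2, used for symbols and gene order only. FPKM summed to between 440565 and 460423 per library, and 10922 to 11163 genes reached 1 FPKM. KD553 titles and descriptions carry different numbers, so both KD553 columns were used without one and are named by column.

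Values were analysed as log2(FPKM + 1), unscaled, for 11340 genes with at least 1 FPKM in at least 2 libraries. limma 3.58.1 in R 4.3.3 (group means, trend and robust options, all 10 libraries, 5 residual degrees of freedom) gave changes, 95% intervals and Benjamini-Hochberg adjusted p. The steps were tested on simulated data. An exact permutation test of 2 against 2 libraries cannot go below p = 0.333 and was not used. All 8 members were named, with the 3 genes most correlated with each tested member, of which 1 is not reported here. Of each of 7 lists, called genes and up to 4 of the most abundant were named, and other genes were chosen after their values were seen. The members and lists were chosen with earlier results of these data known. Alternatives were the pseudocount, the filter, scaling, the fitted groups, single libraries, a replicate block and other controls.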

Additional observations from a re-analysis of the deposited data

How the results depend on the processing

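Of 360 alternative values for the tested members, 341 kept their direction and side of the threshold, 18 turned in sign and 1 gained a call (MFGE8 for Lv5NC against Blank without the first Blank library). Settings without the second Blank library where Blank is not compared, the block with Lv3NC numbers exchanged and all those for CD36, FABP3 and ITGA4 were chosen after seeing the data. The cause of the changes below was not tested. With 2 libraries a group, leaving out 1 leaves a lone library that is assumed to vary like the others. Read depth is unknown, so the precision of low values such as those of MUC1 and XDH could not be computed.

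For OV55666 against Lv5NC, the 0 calls became 1 with a pseudocount of 0.1 and 43 with Blank as the control. For KD553 against Lv3NC, the 8 calls became 0 with only the groups compared, 2 with Lv5NC and 286 with Blank as the control, and 0 to 12 with single libraries left out. For Lv5NC against Blank, the 33 calls became 18 with the pseudocount of 0.1, 13 without the filter, and 0 to 288 with single libraries left out. For Lv3NC against Blank, the 15 calls became 6, 7 and 0 to 292 under those settings, and 56 with only the groups compared. The 0 calls between Lv3NC and Lv5NC became 1 without the filter. The 37 of any group difference became 19 with the pseudocount and 3 without the filter.

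Samples share only replicate numbers, which the labels do not tie to a culture or day. With a replicate block by these numbers the calls became 1 for KD553 against Lv3NC (5 with KD553 numbers exchanged), 0 for Lv5NC against Blank (12 exchanged) and 0 for Lv3NC against Blank. Deviations of same-numbered libraries correlated at 0.503 for Lv5NC and OV55666, 0.444 for Lv3NC and KD553, -0.462 for Lv5NC and Lv3NC and -0.622 for Lv5NC and KD553. The block changed no member's call.

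With Blank as the control of OV55666, the differences were 0.225 for MFGE8, 0.557 for XDH and -0.089 for ABCG2. With Lv5NC as the control of KD553 they were -0.228 for PLIN2 and 0.065 for ABCG2. With library medians made equal PLIN2 was -0.009 for OV55666. Leaving out single libraries gave ranges that cross 0: -0.274 to 0.19 (XDH) and -0.188 to 0.214 (PLIN2) for OV55666, -0.154 to 0.352 (XDH) and -0.187 to 0.139 (ABCG2) for KD553, and -0.395 to 0.111 for the difference of both effects on XDH. For Lv3NC they were -0.065 to 0.276 for MFGE8 against Blank, and against Lv5NC -0.127 to 0.062 (SPP1), -0.274 to 0.19 (XDH) and -0.056 to 0.234 (ABCG2).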
